A study of Mus musculus with 36 samples.

Results

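The acute phase proteins described here were 10 secreted proteins of mouse liver: serum amyloid A (*Saa1*, *Saa2*, *Saa3*, *Saa4*), orosomucoid (*Orm1*, *Orm2*), haptoglobin (*Hp*), hemopexin (*Hpx*), lipocalin 2 (*Lcn2*) and serum amyloid P component (*Apcs*). Their probes were found by gene name in the scanner files, or by the current symbol of the probe's accession. All 10 genes were present, by 12 probes, among the 13042 named genes of the processed table, which holds the spots that the authors counted as expressed. The deposited level is the log2 signal of the Cy5 channel after adjustment by the Cy3 channel. Levels of different probes cannot be set against each other, so every comparison below is between livers on the same probe.

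Livers came from 36 adult male C57BL/6J mice (the name in the labels; C57BL/6JOlaHsd in the study's methods), 12 in each group. An adaptation phase of 3 weeks (the length in the labels; 2 weeks in the study's methods) came first, in which every mouse ate mild-high-fat food with fat at 30 en%. The t=0 mice were killed at its end, the HF mice stayed on this diet for another 12 weeks, and the HF-Q mice received it for 12 weeks with 0.33% (w/w) quercetin, a flavonol of plants. Food was withheld for at least 2 h before death, so all 3 groups share the fat-rich diet and the fast, and HF and t=0 differ in age as well as in time on the diet. Each array carried Cy5-labelled RNA of a single liver against a common Cy3-labelled pool of all samples.

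Acute phase proteins are made mainly by hepatocytes and are released into blood. Interleukin-6, acting through its receptor, gp130 and STAT3, and interleukin-1, acting through NF-kB, raise their transcription after infection, injury or another inflammatory stimulus, with C/EBP factors acting on many of the same promoters. Serum amyloid A binds to high-density lipoprotein and can change by orders of magnitude, whereas haptoglobin and hemopexin, the scavengers of free hemoglobin and heme, are already abundant in the resting liver. In bulk RNA, fewer cells of a type and less RNA per cell cannot be told apart.

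RefSeq promoter sequence (GRCm38.p6) was at hand for 8 of the 10 genes, all but *Orm1* and *Hp*. In the 250 bases upstream of the start, the C/EBP-type motif TTGCNNAA, searched on both strands, occurred in 7 of the 8 (all but *Apcs*) and in 9.56% of 32851 mouse promoters. The IL-6 response element CTGGGAA was found in *Apcs* alone of the 8 and in 9.10% of all promoters, the STAT3-type motif TTCNNNGAA in *Apcs* alone and in 7.02%, and an NF-kB-type motif of 10 bases in 0 of the 8 and in 1.41%. In *Apcs* the matches to different motifs did not overlap. A match is a description of letters only, and no match says only that the letters are not in this window. As described below, *Orm2* and *Lcn2* were lower in HF than at t=0, and *Saa1* and *Saa2* were far above the group median in single livers. The upstream sequences of *Saa1* (chr7:46742981-46743230, minus strand), *Saa2* (chr7:46751583-46751832, plus strand), *Orm2* (chr4:63362199-63362448, plus strand) and *Lcn2* (chr2:32387740-32387989, minus strand) are therefore shown, with the C/EBP-type match in capitals:
Saa1: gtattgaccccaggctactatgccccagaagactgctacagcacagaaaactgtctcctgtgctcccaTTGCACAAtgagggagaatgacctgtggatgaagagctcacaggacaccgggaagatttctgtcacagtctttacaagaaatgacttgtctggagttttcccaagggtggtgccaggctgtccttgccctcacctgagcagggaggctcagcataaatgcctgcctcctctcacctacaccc
Saa2: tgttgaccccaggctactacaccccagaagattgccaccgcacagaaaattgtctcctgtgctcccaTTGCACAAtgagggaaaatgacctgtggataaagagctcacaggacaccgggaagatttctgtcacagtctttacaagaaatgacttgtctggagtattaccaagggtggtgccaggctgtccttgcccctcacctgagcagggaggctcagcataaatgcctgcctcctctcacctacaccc
Orm2: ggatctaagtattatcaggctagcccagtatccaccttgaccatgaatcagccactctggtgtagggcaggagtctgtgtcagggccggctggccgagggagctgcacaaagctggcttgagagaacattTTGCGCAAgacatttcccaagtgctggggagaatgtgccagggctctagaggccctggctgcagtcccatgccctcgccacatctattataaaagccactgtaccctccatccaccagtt
Lcn2: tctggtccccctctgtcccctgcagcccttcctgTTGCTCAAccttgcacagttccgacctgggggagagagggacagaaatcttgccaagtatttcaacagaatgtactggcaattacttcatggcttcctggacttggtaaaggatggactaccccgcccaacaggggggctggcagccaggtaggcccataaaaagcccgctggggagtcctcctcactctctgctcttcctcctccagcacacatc
The match began 182 bases upstream of the start in *Saa1*, 183 in *Saa2*, 120 in *Orm2* and 216 in *Lcn2*. The *Saa1* and *Saa2* windows were identical at 238 of 249 aligned bases (95.6%), whereas *Saa1* and *Saa3* shared 49.2% and *Saa1* and *Saa4* 47.1%.

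All 7 hepatocyte markers in the processed table were well above background on all 36 arrays, and the log2 of their summed signal ranged from 19.79 to 20.68. Marker sums, here and below, were taken on the linear scale before the log2, so the brightest markers weigh most in them. The arrays lay on 9 slides, each of which held all 3 groups. The HF-Q replicate 2 array stood apart, with a median Cy5 signal of 8.96 times the background, compared with 2.04 to 3.24 on the other 35. HF replicate 5 carried pancreatic transcripts: the log2 of the summed signal of 7 pancreas markers was 22.86 there and at most 12.05 in every other liver. Leaving out either of these arrays changed no call on an acute phase gene.

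The array cannot fully separate the closest relatives. The *Saa3* probe is listed with an accession of *Saa3* and also with that of *Saa1*, so these values may share signal. *Saa1* and *Saa4* have a second probe each, and the brighter one stands for the gene. On the mm8 build of the array files, the main probes lie within a single cluster on chromosome 7: *Saa3* at chr7:46580703-46580762, *Saa4* at chr7:46597432-46597491, *Saa1* at chr7:46608742-46608801 and *Saa2* at chr7:46622207-46622266. *Orm1* (chr4:62831810-62832417) and *Orm2* (chr4:62850306-62850365) are neighbors too. The other probes are for *Hp* (chr8:112464401-112464460), *Hpx* (chr7:105465611-105465670), *Apcs* (chr1:174731503-174731562) and *Lcn2* (chr2:32207526-32207770).

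*Saa1*, *Saa2* and *Saa3* spanned a wide range among livers of the same group, and *Saa4* a narrower one. *Saa1*, which encodes a major circulating serum amyloid A, had a lowest, median and highest log2 level of 13.63, 14.25 and 16.07 at t=0, of 13.09, 13.95 and 14.55 in HF, and of 13.22, 13.62 and 16.62 in HF-Q. *Saa2*, the other major circulating form, gave 13.81, 14.31 and 16.44 at t=0, 13.06, 14.21 and 14.76 in HF, and 13.14, 13.81 and 16.91 in HF-Q. The highest livers were t=0 replicate 4 and HF-Q replicate 4 for both genes, and the groups overlapped. *Saa3*, also made by macrophages and fat tissue, had levels of 10.86, 11.43 and 13.16 at t=0, 10.27, 11.35 and 11.96 in HF, and 10.47, 11.02 and 13.56 in HF-Q. *Saa4*, the constitutive form that responds little to inflammation, stayed closer together, at 13.74, 14.21 and 14.66 at t=0, 13.61, 13.97 and 14.47 in HF, and 13.60, 14.09 and 15.30 in HF-Q.

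The orosomucoids, drug-binding glycoproteins of plasma, spanned a narrower range than *Saa1*, *Saa2* and *Saa3*. *Orm1* gave a lowest, median and highest log2 level of 13.14, 13.68 and 14.13 at t=0, 12.79, 13.39 and 13.70 in HF, and 12.80, 13.21 and 14.55 in HF-Q. *Orm2* gave 13.05, 13.51 and 13.88 at t=0, 12.69, 13.27 and 13.54 in HF, and 12.64, 13.11 and 14.61 in HF-Q. For both genes the HF and t=0 livers overlapped, but only 1 HF liver of 12 exceeded the t=0 median. *Apcs*, a pentraxin and the main acute phase pentraxin of the mouse, ran from 10.19 to 11.18 with a median of 10.86 at t=0, from 10.34 to 10.88 with a median of 10.73 in HF, and from 10.25 to 12.68 with a median of 10.78 in HF-Q.

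Of the scavengers, *Hp* had a lowest, median and highest log2 level of 18.40, 18.77 and 19.25 at t=0, 18.28, 18.68 and 18.96 in HF, and 18.26, 18.72 and 20.18 in HF-Q, and its Cy5 spot was saturated on 1 array, that of HF-Q replicate 4, so that value is a lower bound. *Hpx* gave 17.42, 17.69 and 18.11 at t=0, 17.45, 17.82 and 18.43 in HF, and 17.45, 17.75 and 18.48 in HF-Q. *Lcn2*, a siderophore-binding protein made by hepatocytes and neutrophils, was near the detection limit, with log2 levels of 6.55, 6.78 and 8.38 at t=0, 6.09, 6.43 and 6.81 in HF, and 5.99, 6.44 and 10.03 in HF-Q. It was well above background in 12 of 12 t=0 livers, 9 of 12 HF livers and 7 of 12 HF-Q livers. Its mean Cy5 signal was 2.71 times the background over the 36 arrays, 1.98 times without HF-Q replicate 4 and t=0 replicate 4, and its mean Cy3 signal was 1.86 times the background.

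**Figure D1:**
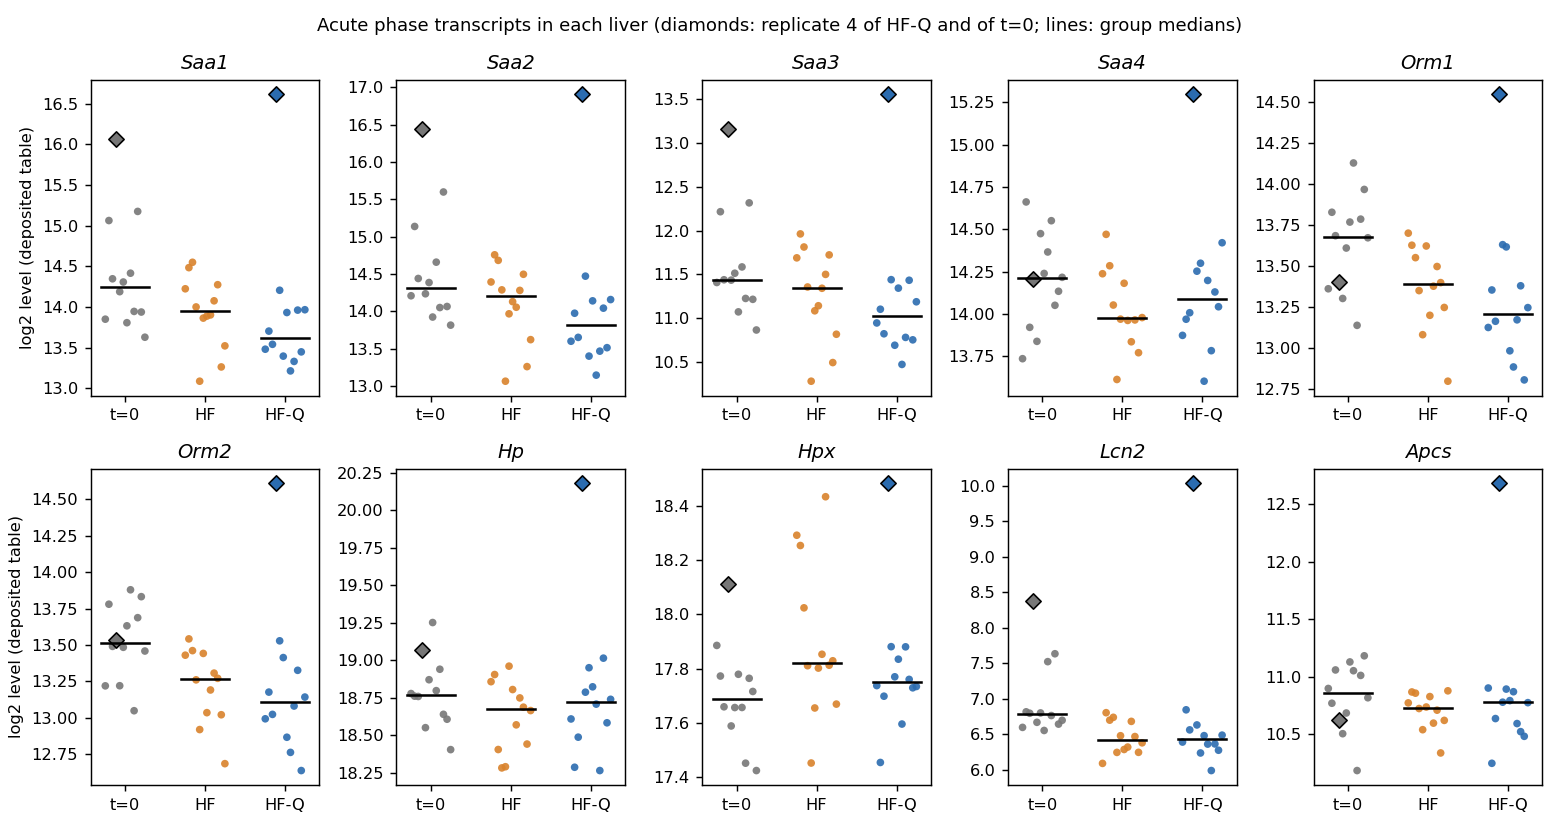
Log2 level of each acute phase gene (y axis, deposited table) in the 12 livers of the t=0, HF and HF-Q groups (x axis), with points for single livers, lines for group medians and diamonds for replicate 4 of HF-Q and of t=0. HF-Q replicate 4 was the highest of all 36 livers for each of the 10 genes, while t=0 replicate 4 stood out for *Saa1*, *Saa2*, *Saa3* and *Lcn2*.

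A single quercetin-fed liver was the highest throughout. HF-Q replicate 4 had the highest level of all 36 livers for 10 of the 10 genes, although for *Hpx* it lay close to HF replicate 9 (18.48 and 18.43), and exceeded its group median by more than 1 log2 unit for 9 of them, all but *Hpx*. Against the median of the other 11 HF-Q livers it was higher by 3.26 on the log2 scale for *Saa2* (9.58-fold), by 3.08 for *Saa1* (8.44-fold) and by 2.62 for *Saa3* (6.15-fold). The difference was 1.90 for *Apcs*, 1.53 for *Orm2*, 1.38 for *Orm1*, 1.26 for *Saa4* and 0.74 for *Hpx*, and at least 1.47 for *Hp*, whose spot was saturated. For *Lcn2* it was 3.64 in the deposited values, but the other HF-Q livers were near background, so its size is not well measured. In the log ratios rebuilt from the scanner files by loess, the same liver was above its group for 10 of the 10 genes, by 2.97 for *Saa2* and 0.48 for *Hpx*, and by 1.22 for *Lcn2*. Over all 21781 probes of the table, 10.7% were above all 11 other livers of the group in this liver and 17.4% were below them. Of all probes, 1.12% lay more than 1 log2 unit from the group median here, in either direction.

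Other acute phase genes were high in this liver too. Of 22 other positive acute phase genes in the table, 15 were above and 2 below all 11 other HF-Q livers, and 12 of the 22 exceeded the median of those livers by more than 1 log2 unit. The genes named here for single livers were chosen after their values were seen. The metallothioneins *Mt2* and *Mt1*, which bind zinc, were higher by 4.78 and 3.70, *Lrg1* by 2.89, the fibrinogen-like *Fgl1* by 2.76, *Orm3* by 2.25 and the serine protease inhibitor *Serpina3n* by 2.17. The fibrinogen chains *Fga*, *Fgb* and *Fgg* were higher by 1.26, 1.21 and 1.57, and *Lbp*, which presents lipopolysaccharide, by 1.19. *Hamp2*, a paralog of the iron hormone hepcidin, differed by -1.66. Of 12 negative acute phase genes, 1 was above all 11 other livers (*Fetub*, 0.43) and 4 were below, among them the transthyretin gene *Ttr* (-0.82) and the corticosteroid-binding globulin gene *Serpina6* (-0.97). Of 24 cytokine, receptor and signaling genes, 11 were above all 11 other livers and 2 below, with a median difference of 0.21. The interleukin-1 receptor gene *Il1r1* was higher by 1.54, the STAT3 feedback inhibitor *Socs3* by 1.70, *Stat3* by 1.00 and *Cebpd* by 0.95, and the leukemia inhibitory factor receptor gene *Lifr* differed by -0.96.

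Summed markers of other cell types stayed within the range of the group. In HF-Q replicate 4, 0 of 10 Kupffer cell and macrophage markers were above or below all 11 other HF-Q livers. Of 4 neutrophil markers 0 were above and 1 below, of 4 B cell markers 0 above and 2 below, and of 2 adipocyte markers 0 above and 1 below. The log2 of the summed signal of the macrophage markers was 15.58, within the range of 15.20 to 15.98 of the HF-Q group. That of the neutrophil markers was 10.19, within 9.69 to 10.59. The neutrophil markers *Ly6g*, *Ngp*, *Camp*, *Ltf*, *Retnlg* and *Elane* were not among the expressed spots of the table. The log2 of the summed hepatocyte signal was 20.11, within the group range of 19.91 to 20.68, and that of 4 erythroid markers 18.15, within 17.31 to 18.29.

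A baseline liver showed a different set. t=0 replicate 4 was the second highest of the 36 livers for *Saa1*, *Saa2*, *Saa3* and *Lcn2*, which it expressed above the median of the other 11 t=0 livers by 1.88, 2.21, 1.73 and 1.61 on the log2 scale. *Hpx* was also above all 11, by 0.45. *Orm1*, *Orm2*, *Saa4* and *Apcs* were not, with differences of -0.28, 0.04, -0.01 and -0.27. Of the 22 other positive acute phase genes, 3 were above all 11 other t=0 livers and 3 below, and *Fgg* and *Serpina3n* differed by -0.21 and -0.01. Here 10 of 10 Kupffer cell and macrophage markers were above all 11 other livers, including the scavenger receptor *Marco* (2.73) and the Kupffer cell secretory protein *Cd5l* (1.42), compared with 12.8% of all probes. The log2 of the summed signal of the macrophage markers was 16.38, the highest of the t=0 group (range 14.58 to 16.38). The B cell markers followed, with a sum of 13.74 at the top of the group range of 11.57 to 13.74, while 5 of 7 hepatocyte markers were below all 11, compared with 22.9% of all probes. Of 4 neutrophil markers 1 was above all 11 (*S100a9*, 1.00) and 0 were below. The log2 of their summed signal was 10.28, the highest of the t=0 group (range 9.22 to 10.28). Of the 24 cytokine, receptor and signaling genes, 3 were above all 11 and 5 below, with a median difference of -0.07. The interleukin-1 beta gene *Il1b* was higher by 1.15, *Il1r1* differed by -0.72, and the formyl peptide receptor *Fpr2*, a receptor of serum amyloid A, was higher by 1.38. The part of these cells in the *Saa* and *Lcn2* levels was not tested.

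**Figure D2:**
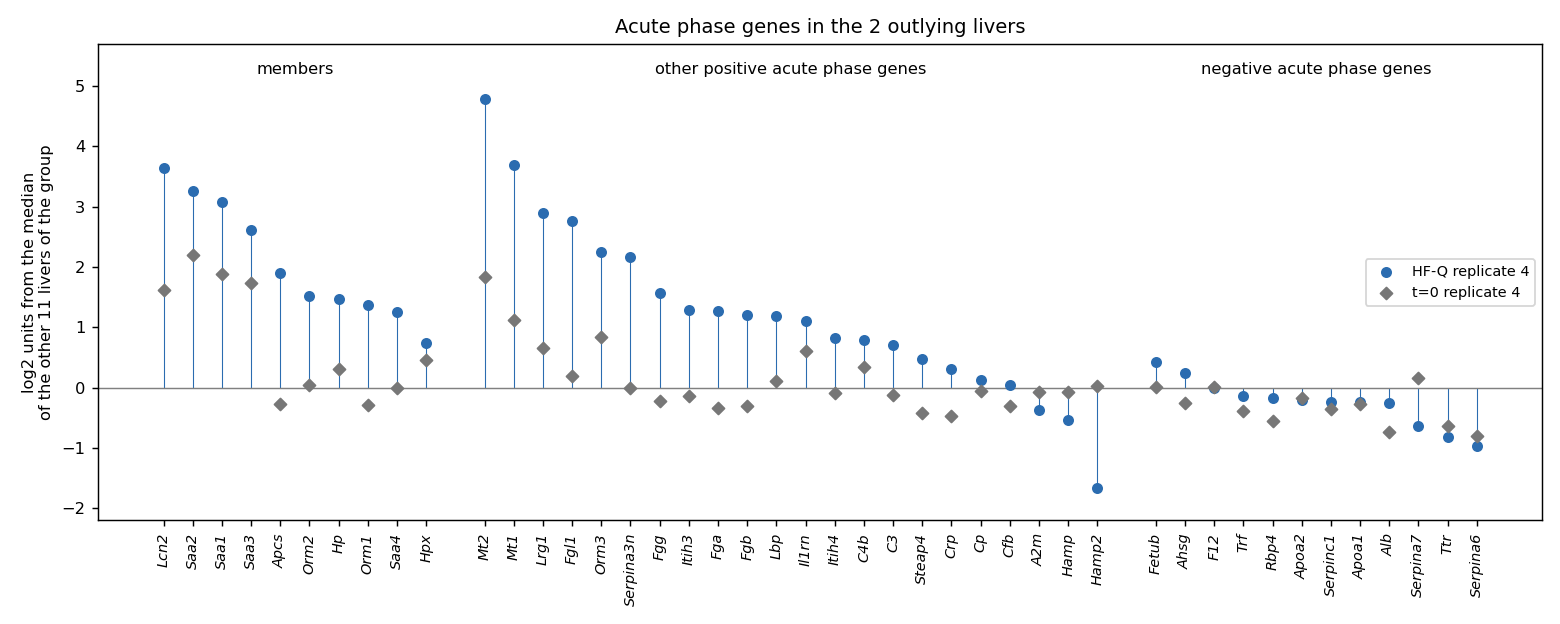
Difference of HF-Q replicate 4 (circles) and t=0 replicate 4 (diamonds) from the median of the other 11 livers of the same group (y axis, log2 units) for the 10 acute phase genes described here ("members"), 22 other positive and 12 negative acute phase genes (x axis). HF-Q replicate 4 was high across most of the positive genes, up to 4.78 for *Mt2*, whereas t=0 replicate 4 was high for *Saa1*, *Saa2*, *Saa3* and *Lcn2*. *Mt1* and *Mt2* were above the median there too (1.12 and 1.84), but below the highest other t=0 liver.

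Among the other livers such excursions were rare. Of 360 pairs of liver and gene, 14 lay more than 1 log2 unit above the group median: 9 in HF-Q replicate 4, 4 in t=0 replicate 4 and 1 in t=0 replicate 10, where *Saa2* reached 15.60. Only 2 pairs lay more than 1 log2 unit below, *Saa2* and *Saa3* in HF replicate 5, the liver with pancreatic transcripts. The loess log ratios gave 14 high pairs, divided 9, 4 and 1 among these livers, and 0 low ones. The map of deviations shows replicate 4 of HF-Q and of t=0 as columns, with t=0 replicates 2 and 10 as weaker ones. Over all 21781 probes, 1.12% lay more than 1 log2 unit from the group median, in either direction, in HF-Q replicate 4. The share was 1.41% in t=0 replicate 4, 0.26% in t=0 replicate 10 and 1.39% in HF replicate 5. It was highest in HF-Q replicate 2, at 2.68%.

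**Figure D3:**
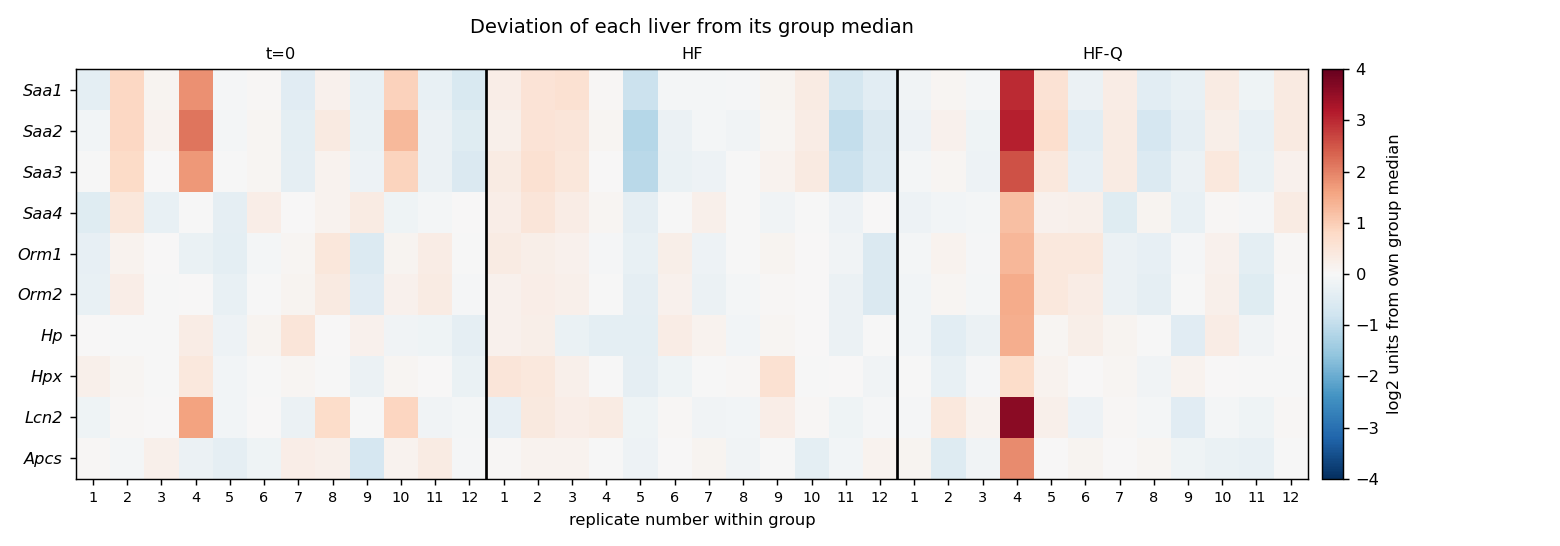
Deviation of each liver (columns, numbered within t=0, HF and HF-Q) from its group median for each gene (rows), in log2 units from blue (low) to red (high). The column of HF-Q replicate 4 is red in all 10 rows, and that of t=0 replicate 4 in the rows of *Saa1*, *Saa2*, *Saa3* and *Lcn2*.

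The question whether quercetin alters acute phase transcripts on this diet is asked by HF-Q against HF. No gene passed limma's moderated test at an adjusted p of 0.05 (0 of 10, compared with 2.36% of all 21781 probes, 1.49% higher and 0.863% lower), and 0 of 10 had an unadjusted p under 0.05 by limma or by the methods' t-test, compared with 15.4% of all probes by limma. The median log2 difference over the 10 genes was -0.01, compared with 0.01 over all probes. Differences ranged from -0.11 for *Hpx* (SE 0.10, adjusted p = 0.633) to 0.27 for *Lcn2* (SE 0.29, adjusted p = 0.679), with *Saa1* at -0.03 (SE 0.27), *Orm2* at -0.00 (SE 0.15) and *Hp* at 0.15 (SE 0.15). *Saa2* and *Saa3* differed by -0.04 (SE 0.29) and -0.06 (SE 0.25), *Saa4* by 0.13, *Orm1* by -0.05 and *Apcs* by 0.14. Without HF-Q replicate 4 still 0 of 10 genes passed, compared with 2.07% of probes in either direction and 0.73% lower, 8 of the 10 differences were negative, and the median became -0.14. *Saa1* was then at -0.28 (SE 0.15, adjusted p = 0.394), *Saa2* at -0.30 (SE 0.18, adjusted p = 0.433), *Hpx* at -0.17 (SE 0.09, adjusted p = 0.365) and *Lcn2* at -0.03 (SE 0.09, adjusted p = 0.887).

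After 12 further weeks on the mild-high-fat diet, *Orm2* and *Lcn2* were lower than at t=0. In HF against t=0, 2 of 10 genes passed limma's test, both lower, compared with 21.3% of all probes in either direction, 10.9% higher and 10.4% lower, so the count of genes is close to the background of this comparison. *Orm2* fell by 0.31 on the log2 scale (SE 0.10, adjusted p = 0.028) from 13.52 ± 0.26 to 13.21 ± 0.26 (SD, n = 12), and was lower on 7 of 9 slides. *Lcn2* fell by 0.54 (SE 0.16, adjusted p = 0.018) from 6.99 ± 0.56 to 6.45 ± 0.23, and was lower on 8 of 9 slides. A two-sided permutation test of the mean difference gave an unadjusted p of 0.00742 for *Orm2*, 0.00082 for *Lcn2* and 0.0256 for *Orm1*, among 30 such tests of 10 genes in 3 comparisons. Without t=0 replicate 4, *Lcn2* differed by -0.41 (adjusted p = 0.013). In the loess log ratios *Lcn2* differed by -0.31 and missed the threshold (adjusted p = 0.051), and 3 of 12 HF livers were not well above background. The call on *Orm2* was lost without t=0 replicate 8 or 11 (adjusted p = 0.052 in each case), and both calls were lost when all 36 arrays entered a single fit, with adjusted p of 0.111 and 0.151.

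The other 8 genes did not pass in HF against t=0. *Saa1* differed by -0.47 (SE 0.22, adjusted p = 0.131), *Saa2* by -0.50 (SE 0.25, adjusted p = 0.150), *Saa3* by -0.35 (SE 0.22, adjusted p = 0.246) and *Orm1* by -0.27 (SE 0.11, adjusted p = 0.071). *Hp*, *Apcs* and *Saa4* differed by -0.15, -0.12 and -0.17. The second, dimmer *Saa4* probe, which was not chosen to represent the gene, did pass (-0.25, SE 0.09, adjusted p = 0.038). *Hpx* was the only gene with a higher mean in HF, by 0.20 (SE 0.09, adjusted p = 0.125). Over the 10 genes the median difference was -0.29, compared with -0.00 over all probes, and 5 had an unadjusted p under 0.05 by limma, compared with 35.5% of probes, and 3 by the methods' t-test. Marker sums moved between these groups too. The median log2 of the summed signal of 4 erythroid markers was 16.58 at t=0, 17.29 in HF and 17.66 in HF-Q. That of 4 neutrophil markers was 9.55, 10.09 and 10.18. Single markers did not all move alike. In HF-Q against t=0 without HF-Q replicate 4, *Hba-a1*, *Hba-a2* and *Hbb-bt* differed by 1.18, 1.21 and 1.34. *Alas2*, also an erythroid marker, differed by -0.24 there (limma adjusted p = 0.024). Of the neutrophil markers, *S100a9* and *S100a8* differed by 0.71 and 0.39, whereas *Mpo* and *Cxcr2* differed by 0.12 each and did not pass. The part of these markers in the differences from t=0 was not tested.

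The comparison of HF-Q with t=0 turned on a single liver. It shares the t=0 livers with HF against t=0, and HF-Q against HF shares the HF-Q livers, so the values are not independent. With all 24 livers, 0 of 10 genes passed limma's test, compared with 11.9% of all probes (6.62% higher and 5.3% lower), and the median difference was -0.29. At an unadjusted p under 0.05, 1 of 10 genes passed by limma, compared with 26.5% of probes, and 0 by the methods' t-test. *Orm1* differed by -0.31 (SE 0.15, adjusted p = 0.168), *Orm2* by -0.31 (SE 0.15, adjusted p = 0.194), *Saa1* by -0.49 (SE 0.30, adjusted p = 0.309) and *Lcn2* by -0.27 (SE 0.31, adjusted p = 0.637).

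Without HF-Q replicate 4, 6 of 10 genes passed, all lower in HF-Q, compared with 13.5% of all probes in either direction and 5.87% lower. *Saa1* fell by 0.74 (SE 0.21, adjusted p = 0.020), *Saa2* by 0.80 (SE 0.24, adjusted p = 0.024) and *Saa3* by 0.63 (SE 0.20, adjusted p = 0.033). *Orm1* fell by 0.42 (SE 0.11, adjusted p = 0.011), *Orm2* by 0.44 (SE 0.10, adjusted p = 0.0063) and *Lcn2* by 0.57 (SE 0.16, adjusted p = 0.021). *Hp*, *Hpx*, *Saa4* and *Apcs* did not pass, with differences of -0.13, 0.03, -0.15 and -0.15. Permutation tests then gave an unadjusted p of 0.00182 for *Saa1*, 0.00174 for *Orm1*, 0.00091 for *Orm2* and 0.00048 for *Lcn2*. Leaving t=0 replicate 4 out as well, 6 genes passed, the same 6, whereas with slide as a fixed block and HF-Q replicate 4 left out *Orm1* and *Orm2* passed and *Saa1* did not (adjusted p = 0.076). Robust regression on all 24 livers, which gives outlying values less weight for each probe separately, called 5 genes, all but *Saa3* of the same 6. The liver was singled out after its values were seen, and nothing in the labels sets it apart.

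**Figure D4:**
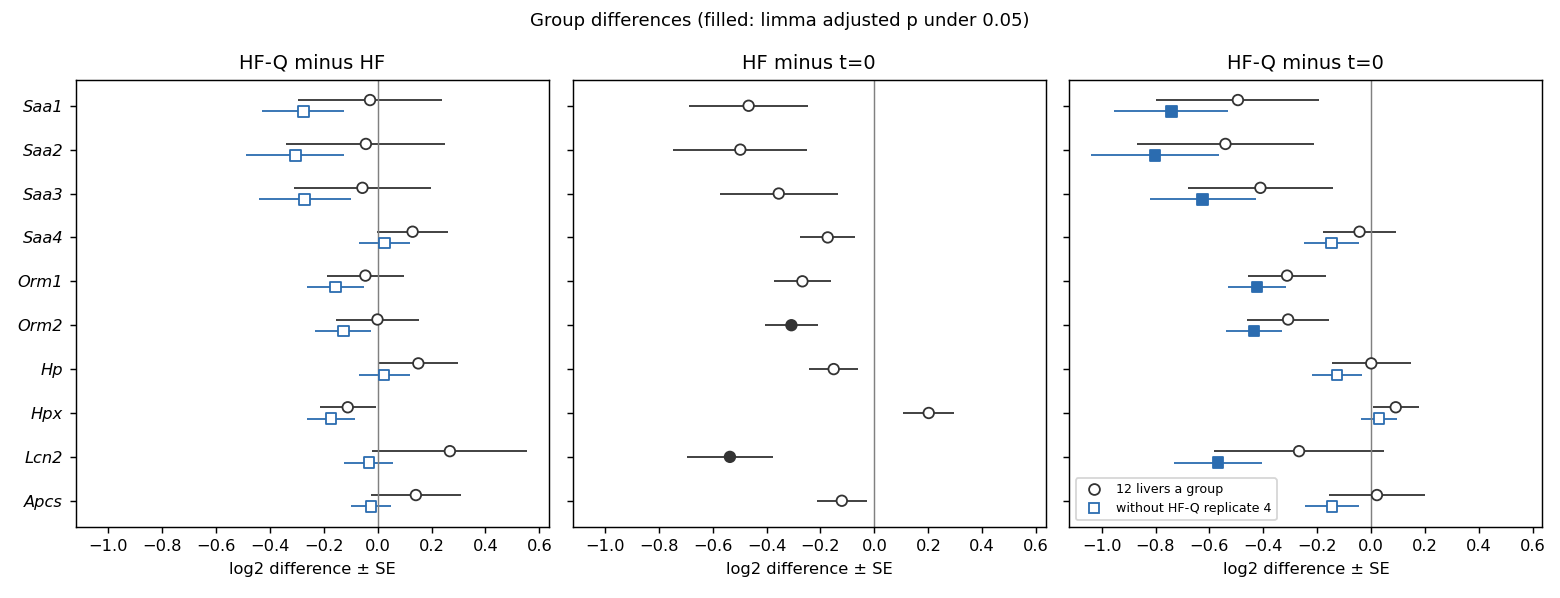
Log2 difference ± SE (x axis) of each gene (y axis) in HF-Q minus HF, HF minus t=0 and HF-Q minus t=0, by limma, with circles for all 12 livers a group, squares for the values without HF-Q replicate 4, and filled symbols for an adjusted p under 0.05. In HF-Q minus t=0, 0 circles and 6 squares are filled, and leaving out the liver moves the values to the left.

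Within groups the genes formed tight pairs and a looser whole. Over the 36 livers, as deviations from group means, *Saa1*, *Saa2* and *Saa3* correlated with Pearson's r of 0.985 to 0.993, and *Orm1* with *Orm2* at 0.978 (Spearman's rho of 0.985 for *Saa1* and *Saa2*), each with a permutation p of 1e-05, the smallest that 100000 resamples can give, and an adjusted p of 5e-05 over 45 pairs. Shared probe signal between these relatives was not tested. *Saa1* and *Lcn2* correlated at 0.877 (rho 0.687, adjusted p = 5e-05), at 0.863 within t=0, 0.567 within HF and 0.544 within HF-Q without replicate 4. Outside the *Saa1* to *Saa3* and *Orm1* to *Orm2* pairs, r ranged from 0.414 to 0.877 with a median of 0.625, and 39 of 41 pairs had an adjusted p under 0.05.

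Much of this looser correlation rested on the outlying livers. Without replicate 4 of HF-Q and of t=0, r over the 41 pairs ranged from -0.08 to 0.654 with a median of 0.368, and 17 pairs kept an adjusted p under 0.05. The tight pairs stayed at 0.969 to 0.982 for *Saa1* to *Saa3* and 0.980 for *Orm1* and *Orm2*. *Hp* and *Lcn2* went from 0.660 (rho 0.159) to -0.08, and *Saa1* and *Apcs* from 0.564 to 0.089. *Saa1* and *Orm2* (0.729 and 0.581) and *Saa1* and *Lcn2* (0.877 and 0.608) held in both sets, with adjusted p of 0.00395 in the 34 livers for each pair.

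**Figure D5:**
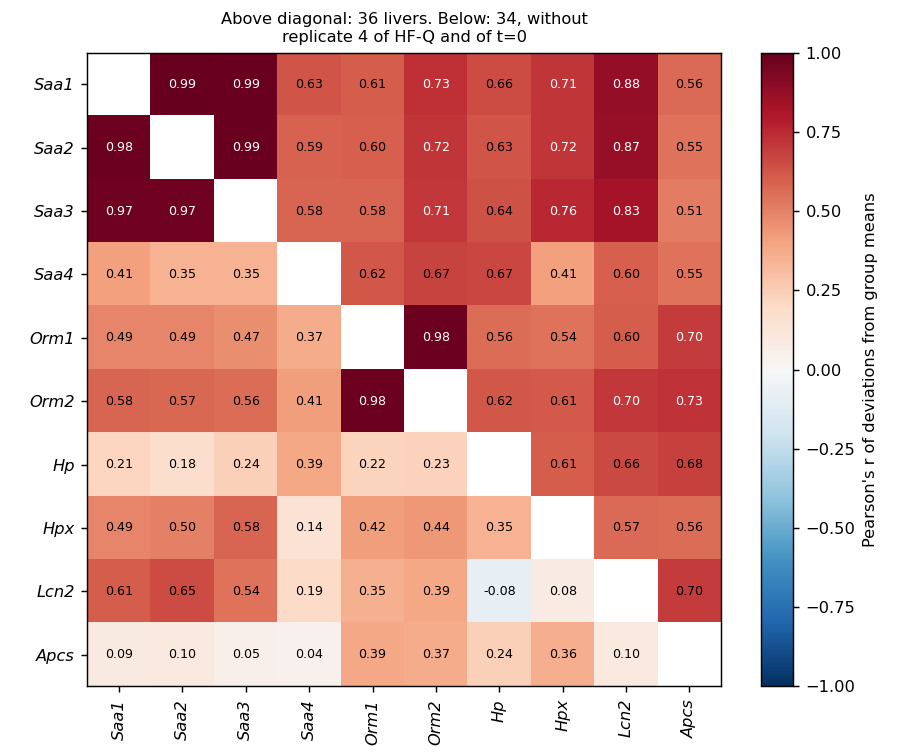
Pearson's r between the deviations of 10 genes (rows and columns) from their group means, over 36 livers above the diagonal and over the 34 livers without replicate 4 of HF-Q and of t=0 below it. The *Saa1*, *Saa2* and *Saa3* block and the *Orm1* and *Orm2* pair stay above 0.96 on both sides, while most values of *Hp* and *Apcs* are lower below the diagonal.

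Beyond these genes, the probes most like *Saa1* over the 36 livers were those of *Orm3* (r = 0.850), *Lhx1* (0.795), *Lrg1* (0.766), *Ly6d* (0.758) and *Olfr1218* (0.747). Those most like *Hp* were *Olfr1218* (0.855), *Lrg1* (0.811), *Itih3* (0.795), *Serpinf2* (0.788) and the fibrinogen alpha chain *Fga* (0.742). Those most like *Orm2* were *Orm3* (0.781), *Itih3* (0.777), *Trmt10a* (0.751), *Aig1* (0.748) and *Fga* (0.743). Without the 2 outlying livers *Orm3* stayed at 0.724 with *Saa1*, whereas *Lrg1* and *Ly6d* were at 0.317 and 0.292. The points share the same arrays, and these are descriptions of likeness only.

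Other positive acute phase genes showed the same split between livers and groups. Of 22 in the table, 4 were lower in HF than at t=0 by limma and 0 higher, compared with 10.4% and 10.9% of all probes: *Serpina3n* (-0.41, adjusted p = 0.00043), *Lbp* (-0.28, adjusted p = 0.0030), *Mt1* (-0.61, adjusted p = 0.039) and *A2m* (-0.23, adjusted p = 0.019), with a list median of -0.13. In HF-Q against t=0, 1 of 22 was lower, compared with 5.3% of all probes, the copper carrier *Cp* (-0.21, adjusted p = 0.021). Without HF-Q replicate 4, 8 were lower, compared with 5.87% of all probes, and 0 higher, with a list median of -0.22, compared with 0.02 over all probes. Among the 8 were *Itih3*, a hyaluronan-binding serum protein (-0.29, adjusted p = 0.0026), *Serpina3n* (-0.37, adjusted p = 0.0084), *Fga* (-0.34, adjusted p = 0.010) and *Lbp* (-0.22, adjusted p = 0.014). In HF-Q against HF, 0 of 22 passed with or without that liver, and *Fgb*, *Itih3*, *Lbp*, *Serpina3n* and *Orm3* differed by -0.10, -0.06, 0.16, 0.23 and 0.23 with it and by -0.21, -0.17, 0.06, 0.05 and 0.05 without it.

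Negative acute phase genes, whose proteins fall during inflammation, did not move as a list. Of 12, 1 rose in HF against t=0, compared with 10.9% of all probes, the thyroxine-binding globulin gene *Serpina7* (1.21, adjusted p = 2.3e-08). In HF-Q against t=0, 2 of 12 rose and 1 fell, compared with 6.62% and 5.3% of all probes. *Serpina7* (1.39, adjusted p = 6.3e-08) and the apolipoprotein *Apoa2* (0.35, adjusted p = 0.0047) rose, and *Ttr* fell (-0.33, adjusted p = 0.038). Without HF-Q replicate 4 *Serpina6* rose too (0.43, adjusted p = 0.018). The albumin gene *Alb* differed by 0.03 and 0.02 in these comparisons and by -0.01 in HF-Q against HF. *Serpina6* was the only list gene that passed in HF-Q against HF (0.41, adjusted p = 0.041), and it did so without HF-Q replicate 4 too (0.49, adjusted p = 0.0035). Over all probes, 2.36% passed in HF-Q against HF with that liver and 2.07% without it, so a single call among the lists does not stand out.

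Upstream signaling genes were called about as often as all probes in HF against t=0. Of 24 cytokine, receptor and signaling genes in the table, 4 were higher and 1 lower, compared with 10.9% and 10.4% of all probes: *Il1b* (0.42, adjusted p = 0.032), *Stat3* (0.28, adjusted p = 0.048), the adaptor kinase *Irak1* (0.22, adjusted p = 0.0017), the phosphatase *Ptpn11* (0.17, adjusted p = 0.035) and *Lifr* (-0.40, adjusted p = 0.036). The interleukin-6 gene was not among the expressed spots. *Il6ra*, *Il6st*, *Socs3*, *Cebpb* and *Cebpd* differed by -0.19, 0.03, -0.21, -0.23 and 0.01 and did not pass. In HF-Q against HF 0 of 24 passed, with *Cebpb* at 0.39 (adjusted p = 0.055) *Il6ra* at 0.25 (adjusted p = 0.189), *Socs3* at 0.44 (adjusted p = 0.440) and *Stat3*, *Il6st* and *Cebpd* at -0.08, 0.03 and 0.14. Without HF-Q replicate 4 the last 3 were at -0.17, 0.01 and 0.06. In HF-Q against t=0, 3 of 24 were higher and 0 lower, compared with 6.62% and 5.3% of all probes. They were the cytokine feedback inhibitor *Socs1* (0.40, adjusted p = 0.026), *Irak1* (0.20, adjusted p = 0.0090) and *Ptpn11* (0.16, adjusted p = 0.049).

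Among 11 receptors and partners of these proteins, 4 were higher in HF than at t=0, compared with 10.9% of all probes. They were *Cd163*, the macrophage receptor for haptoglobin and hemoglobin (0.53, adjusted p = 0.0018), *Hmox1*, which breaks down heme (0.35, adjusted p = 0.018), *Lrp2*, a receptor that takes up lipocalins (0.61, adjusted p = 0.0060), and *Tlr4* (0.23, adjusted p = 0.024). In HF-Q against t=0, *Cd163* (0.61, adjusted p = 0.00042) and *Lrp2* (0.45, adjusted p = 0.034) were higher, compared with 6.62% of all probes. The median log2 of the summed signal of Kupffer cell and macrophage markers was 15.18 at t=0, 15.64 in HF and 15.60 in HF-Q. The part of these markers in the *Cd163* values was not tested. In HF-Q against HF 0 of 11 passed, with *Cd163* at 0.08 and *Hmox1* at -0.09.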

How the data were processed

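Liver RNA of 36 mice was hybridised on 2-colour Agilent arrays. The authors scanned and extracted the arrays with Agilent Feature Extraction (10.5.1.1 in the submitters' processing notes), adjusted Cy5 by Cy3 in GeneMaths XT and deposited log2 values of the spots they counted as expressed (23256 spots, 21781 probes). The deposited scanner intensity values served for alternatives and background; the table could be rebuilt from them with a median absolute difference of 0.0199 log2 units. Spots of a probe were averaged, and the brightest probe stands for a gene. Groups were compared in pairs with limma 3.58.1 (R 4.3.3), with Benjamini-Hochberg adjustment over all probes and calls at 0.05, and with two-sided permutation tests of 100000 resamples, unadjusted. The methods' t-test, other normalizations, filters, slide blocks and left-out arrays were alternatives. Each array held the liver of a single mouse. Named genes were all 10 members, called genes of 4 pathway lists (at most 6 per list and comparison, by size), 15 preset genes, and the 5 genes most like *Saa1*, *Hp* and *Orm2*. Members and lists were chosen with earlier results of these data known. On simulated HF-Q against HF data over 21781 probes, 90 of 100 probes changed by 0.5 log2 units and 99 of 100 changed by 1 were recovered, with 12 false calls. The changed probes were drawn at random from all probes, with normal noise of each probe's own SD. *Saa1*, *Saa2*, *Saa3* and *Lcn2* had SEs of 0.27, 0.29, 0.25 and 0.29 in this comparison. The rates were not measured for these genes and cannot be carried over to them. The number of arrays limits the precision.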

Additional observations from a re-analysis of the deposited data

How the results depend on the processing

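In HF-Q against HF, 0 of 10 genes passed under every alternative run, including each array left out (0 to 0). In HF against t=0 the 2 calls became 1 with probes required to exceed 2 times the background in both channels (*Orm2*), 1 with robust regression (*Lcn2*), 1 with slide as a fixed block (*Orm2*) and 0 with all 36 arrays in a single fit, and ranged from 1 to 3 with each array left out, with 1 without t=0 replicate 8 or 11 (*Lcn2*). Other alternatives added calls: *Orm1* passed in 5 of 17 processing settings and *Saa4* in 2. In HF-Q against t=0 the 0 calls became 5 with robust regression and 2 with array weights (*Orm1* and *Orm2*), and ranged from 0 to 6 with each array left out, with 6 without HF-Q replicate 4. With HF-Q replicate 4 left out, a choice made after seeing the data, the calls were 5 in the loess log ratios, 5 in the Cy5 channel alone, 6 after quantile normalization, 2 with slide as a fixed block, and 6 with t=0 replicate 4 left out as well. Of 30 permutation tests, 3 had an unadjusted p under 0.05, 7 in the loess log ratios, 8 for medians and 9 without HF-Q replicate 4. Of 45 pairs, 43 were correlated, 21 without both outlying livers and 43 to 43 without HF-Q replicate 2. The cause of these changes was not tested. No called result reversed its direction under the alternatives run. With a replicate block, 0, 2 and 0 genes passed in HF-Q against HF, HF against t=0 and HF-Q against t=0, the same counts as without it. The shared replicate numbers did not pair the livers of HF-Q and HF (median residual correlation -0.0097, 3 of 12 pairs over 0.1). Depth is given only as signal over background, which limits *Lcn2*.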
